A study of Mus musculus with 32 samples.

Results

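The genes described here encode nuclear-encoded subunits of the mitochondrial complexes I, III, IV and V, with assembly factors of complex I that share the Ndufaf name. Subunits with other names, such as Cyc1 of complex III, are not among them. They were chosen by name alone: every probe set whose single gene symbol begins with Nduf, Uqcr, Atp5, Cox4, Cox5, Cox6, Cox7 or Cox8 was taken, and where a gene had several, the one brightest on average across the 32 arrays stood for it. This gave 86 of 18193 genes with a single symbol, and 170 of 45037 probe sets. Complex I contributed 34 subunit genes, complex III 8, complex IV 19 and complex V 17, and 8 were assembly factors of complex I. Ndufa4 and Ndufa4l2 were counted with complex IV.

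The arrays came from female C57BL/6 mice aged 12 weeks. Transgenic mice carried CD2-CD30L, which overexpresses CD30L, the ligand of the TNF receptor family member CD30, in T cells, and the controls were non-transgenic littermates, called wild type below. There were 4 mice per genotype. Peripheral lymph node, mesenteric lymph node, spleen and thymus were taken from every mouse, so each tissue had 8 arrays. The number of founder lines behind the transgenic mice is not given in the sources used here, and p-values measure the spread between these 4 mice per genotype. Values are log2 of intensity plus 16 after quantile normalization over all arrays, and 4.00 is the value of an intensity at or below 0.

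Oxidative phosphorylation passes electrons from NADH and succinate through complexes I, II and III to oxygen at complex IV. The proton gradient so built drives ATP synthesis by complex V. Most subunits are made from nuclear genes in every cell type, and a few subunits of complex IV come in isoforms that dominate in muscle, brown fat, lung or testis. In the lymphocytes that fill lymphoid organs, demand on this system differs between resting, dividing and activated cells.

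The tissue labels were checked against defining genes. The mean of 7 thymocyte genes was 11.19 to 11.32 in the thymus arrays and at most 7.58 elsewhere, and the mean of 9 erythroid genes was 9.30 to 11.72 in spleen and at most 5.57 elsewhere. High endothelial venule genes averaged 8.84 to 9.29 in the nodes and at most 6.45 elsewhere. Tnfsf8, the gene for CD30L, was measured by 1 probe set and differed between genotypes by at most 0.07 in size in nodes and spleen and by -0.11 in thymus (adjusted p at least 0.89, limma). It thus did not separate the genotypes, and where that probe set lies relative to the transgene is not given in the sources used here. In the text below "transgenic" therefore means labelled transgenic. The 7 germinal centre B cell genes on the array averaged 7.59 to 8.56 in transgenic peripheral lymph node and 6.52 to 6.84 in wild type. They averaged 8.64 to 8.87 against 7.99 to 8.44 in mesenteric lymph node, and 7.46 to 8.70 against 6.18 to 6.53 in spleen. In thymus the ranges overlapped, 6.48 to 6.97 against 6.72 to 6.92. Gene lists were chosen with earlier results of these data known, so this is no independent check of the labels. Skeletal muscle genes were raised on 3 peripheral lymph node arrays and 1 thymus array, exocrine pancreas genes on 3 mesenteric lymph node arrays and 1 spleen array, and adipocyte genes on 3 peripheral lymph node arrays and 1 thymus array, each over 1.5 log2 above the lowest array of that tissue. These 11 arrays are called below the arrays with foreign transcripts. The ratio of 3' to 5' Actb signal, a sign of RNA integrity, was 1.34 to 3.58 over the arrays.

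Averaged over the 86 genes, with each gene centred on its mean over all arrays, spleen was the tissue with the lowest level and peripheral lymph node the one with the highest. The mean in wild type spleen was -0.10, -0.14, -0.20 and -0.18 in mice 1 to 4, and in transgenic spleen -0.11, -0.12, -0.14 and -0.15. In wild type peripheral lymph node it was 0.06, -0.04, 0.43 and 0.11, and in transgenic peripheral lymph node 0.03, 0.16, 0.25 and 0.19. All 8 spleen arrays lay below all 8 peripheral lymph node arrays, and wild type mouse 3 stood above the other peripheral lymph nodes. Thymus, at -0.05 to 0.08, and mesenteric lymph node, at -0.10 to 0.06, overlapped each other. Over the 78 genes without the restricted isoforms of complex IV, the highest spleen, -0.053, lay just below the lowest peripheral lymph node, -0.047. Within complex IV without these isoforms, spleen and peripheral lymph node overlapped, as they did within complex I. The order of tissues depends on the scaling between arrays. With no normalization the median difference over 83 genes in wild type mice was -0.20 for thymus minus spleen and 0.23 for spleen minus mesenteric lymph node, so spleen was then the higher tissue in both, and -0.13 for spleen minus peripheral lymph node. These are bulk tissues, in which fewer cells of a type and less RNA per cell cannot be told apart.

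**Figure D1:**
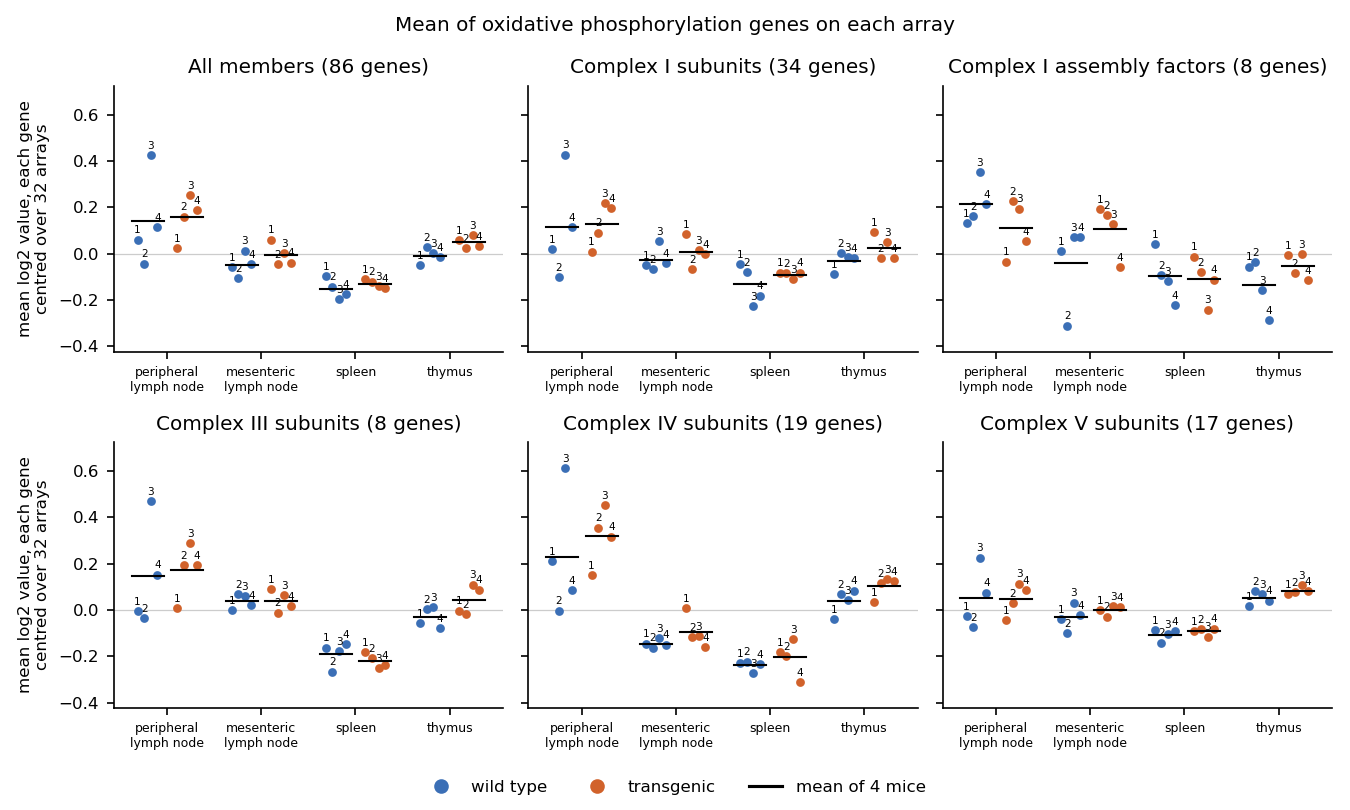
Mean log2 level, each gene centred on its mean over the 32 arrays, of all 86 genes and of each complex, by tissue and genotype. Points are single mice with their numbers. Bars are means of 4 mice. For the mean of all 86 genes, spleen arrays lie between -0.20 and -0.10, below all peripheral lymph node arrays. Wild type mouse 3 is the highest peripheral lymph node there, at 0.43. In complex I spleen and peripheral lymph node overlap.

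The spread between tissues was small for most subunits. Of the 86 genes, 83 passed the filter on low values in the tissue comparisons, and Cox7b2, Ndufa4l2 and Ndufb4 did not. The range of the 83 genes over the 4 tissue means had a median of 0.35 in wild type mice and 0.34 in transgenic mice. For all 12983 genes that passed it was 0.72 and 0.61. The subunit genes were not matched for intensity with all genes here, or with all probe sets in the comparisons below. A range above 1 log2 was seen for 8.43% of the subunit genes and 34.9% of all genes in wild type mice. The 7 subunit genes were Ndufs4, Ndufaf6 and the restricted isoforms Cox4i2, Cox6a2, Cox6b2, Cox7a1 and Cox8b. In transgenic mice 4 genes had such a range, Ndufs4, Cox6b2, Cox7a1 and Cox8b. The lowest wild type mean of Ndufaf6, 5.67 in mesenteric lymph node (SD 1.12), included 1 array at or below an intensity of 0. Peripheral lymph node held the highest mean for 54 of the 83 genes in wild type mice and for 45 in transgenic mice, with 39 in both. For all genes that share was 30.2% in wild type mice. Spleen held the lowest mean for 45, 48 and 39 genes in the same order, and for 31% of all genes in wild type mice.

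**Figure D2:**
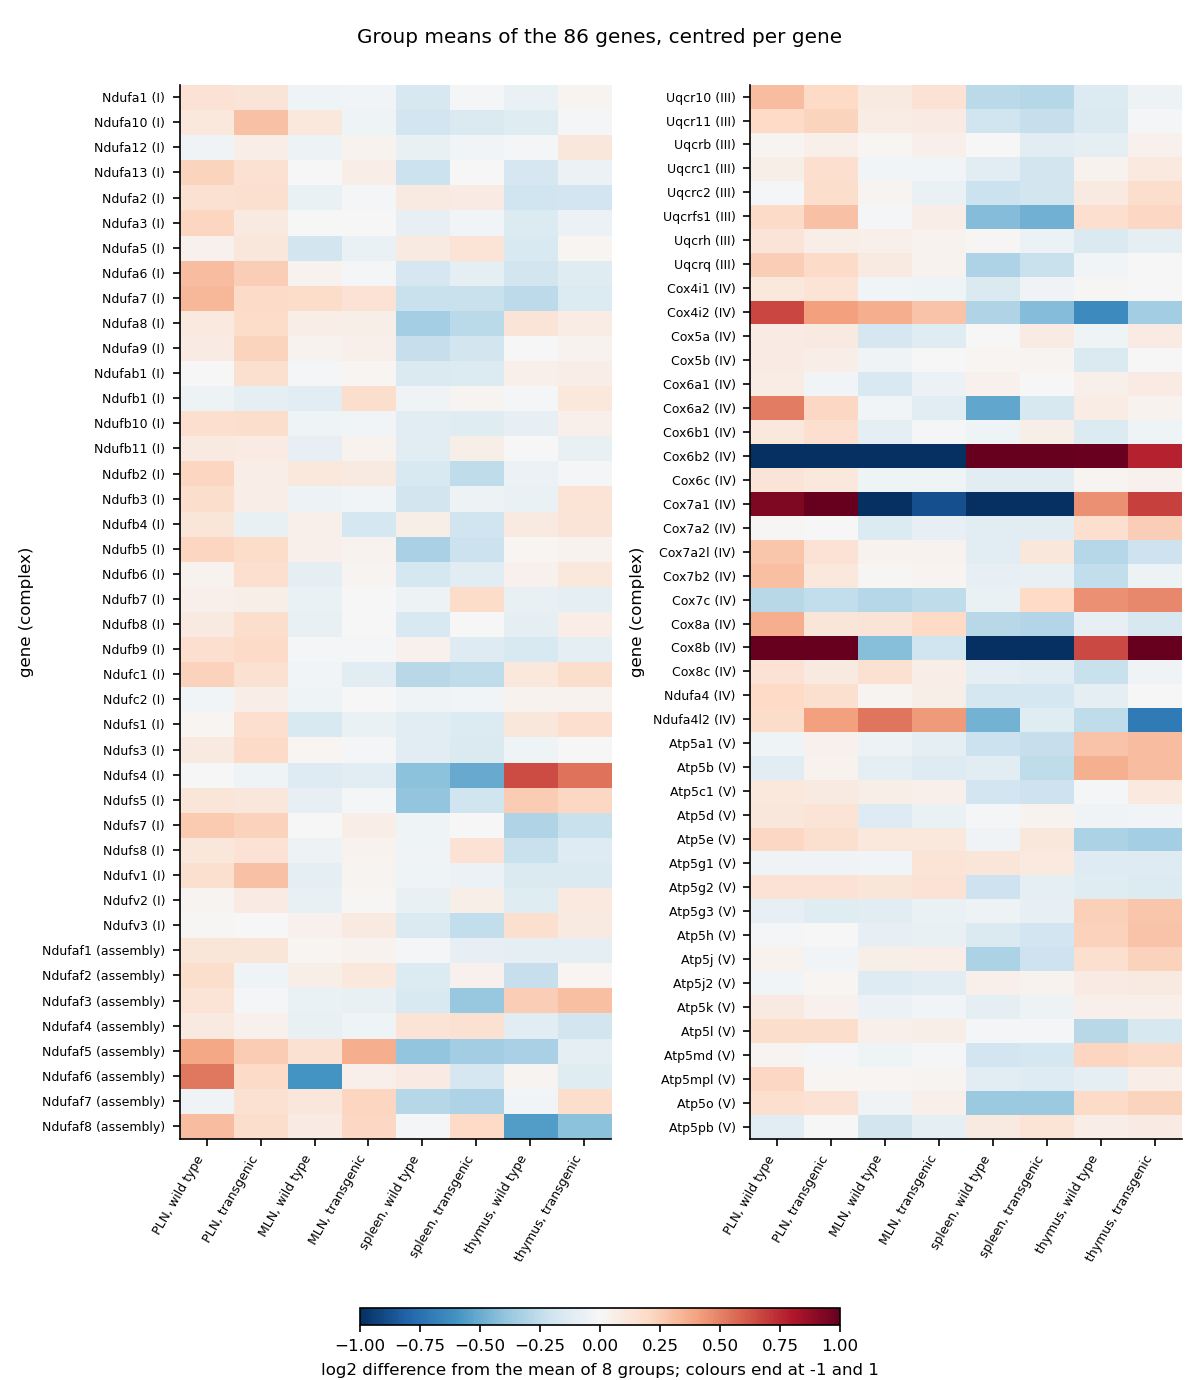
Mean log2 level of each of the 86 genes in the 8 groups of 4 mice, centred per gene, with genes ordered by complex. PLN and MLN are peripheral and mesenteric lymph node. The colour scale ends at 1 in each direction, which only Cox6b2, Cox7a1 and Cox8b reach, and most other rows stay pale.

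In spleen compared with peripheral lymph node, 30 of 83 subunit genes were lower and 1 was higher in wild type mice (limma with mouse as a block, adjusted p under 0.05 over 27022 probe sets). The share called in either direction, 37.3%, was close to the 38.8% of all probe sets, but 36.1% were lower against 20.9% of all probe sets, and 1.2% were higher against 17.9%. The median difference was -0.24 over the 83 genes and -0.06 over all probe sets. The 4 wild type mice had medians of -0.09, -0.06, -0.57 and -0.27, so mouse 3 had the largest difference. For mice 1 and 2 together the median was -0.08 and for mice 3 and 4 it was -0.44. The ratio of 3' to 5' Actb signal divided the spleens the same way, at 2.83 to 3.58 in mice 1 and 2 and 1.65 to 1.85 in mice 3 and 4, and its part in the result was not tested. Other tissue markers moved along: the mean of the 8 adipocyte genes on the array, of 10 listed, was 8.02 to 10.05 in wild type peripheral lymph node and 4.83 to 4.96 in wild type spleen, and the part of adipocytes and erythroid cells was not tested. Without mouse 3, or without mouse 4, 15 genes passed. Without the arrays that carried muscle, adipocyte or pancreas transcripts, a choice made after seeing the data, 9 passed, 8 of them lower, where 25.4% of all probe sets passed. With no normalization 4 were lower and 1 higher.

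Complex I gave 13 of the genes lower in wild type spleen, of 33 measured. Ndufs4, an accessory subunit on the matrix arm that is needed for a stable complex, was 9.34, 9.62, 9.38 and 9.69 in spleen and 9.73, 9.70, 10.20 and 10.05 in peripheral lymph node. Each mouse was lower in spleen, the 4 values of each tissue did not overlap, and the difference was -0.41 ± 0.11 (SE, adjusted p = 0.0125). Ndufa8 was 10.03, 10.21, 10.31 and 10.32 in spleen against 10.63, 10.51, 10.78 and 10.71, also without overlap, a difference of -0.44 ± 0.08 (adjusted p = 0.00156). Ndufs7, which holds the last iron-sulfur centre before ubiquinone, and the small subunit Ndufs5 differed by -0.30 and -0.51. Ndufs1, which carries iron-sulfur centres, and Ndufv1, which holds the NADH site, did not pass. Of the 8 assembly factors, Ndufaf5 and Ndufaf3 were lower. Ndufaf5 was 6.55, 6.60, 6.51 and 6.46 in spleen and 7.34, 7.24, 7.55 and 7.12 in peripheral lymph node, a difference of -0.78 ± 0.15 (adjusted p = 0.00196) with no overlap.

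Complex III had 3 of 8 genes lower in wild type spleen. They were Uqcrfs1, the Rieske iron-sulfur protein that takes electrons from ubiquinol, and the small subunits Uqcr10 and Uqcrq. Uqcrfs1 was 10.04, 9.73, 10.53 and 10.69 in spleen and 10.61, 10.79, 11.24 and 10.85 in peripheral lymph node, a difference of -0.63 ± 0.15 (adjusted p = 0.00612). Each mouse was lower in spleen, but mouse 4's spleen reached above mouse 1's node. Its call was lost without the arrays with foreign transcripts, at -0.61. Uqcr10 was within 9.76 to 9.88 in the 4 spleens and within 10.15 to 10.83 in the nodes, a difference of -0.58 (adjusted p = 0.00409).

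Complex V had 5 of 17 genes lower, Atp5o, Atp5j, Atp5g2, Atp5c1 and Atp5mpl. Atp5o, the stalk subunit that ties the catalytic head to the membrane part, was 10.71, 10.60, 10.83 and 10.88 in spleen and 11.18, 11.17, 11.52 and 11.33 in peripheral lymph node, a difference of -0.54 ± 0.09 (adjusted p = 0.000587). The tissues did not overlap. The catalytic subunits Atp5a1 and Atp5b did not pass in wild type mice. Complex IV had 7 genes lower and Cox6b2 higher, of 17 measured, and 5 of these 8 were restricted isoforms, described below. The others were Cox8a, Cox7a2l and Ndufa4, with differences of -0.64, -0.39 and -0.37. Cox7a2l helps join complexes III and IV. Leaving out the restricted isoforms, 26 of 77 genes were lower in spleen and 0 were higher (limma). The core subunits Cox4i1 and Cox5a passed in none of the 6 comparisons between wild type tissues, and neither did Uqcrc1 of complex III.

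Transgenic mice, whose arrays are separate from the wild type ones, gave 30 genes lower and 2 higher in spleen than in peripheral lymph node. Of all probe sets 24.7% passed there, 13.9% lower and 10.7% higher. All 31 genes called in wild type mice had the same sign in transgenic mice, and 23 of them passed in both, which is 74.2% of the wild type calls and 71.9% of the transgenic calls. This agreement was not computed for all probe sets, so it is not shown to be particular to the subunit genes. Uqcrfs1 was 10.09, 10.01, 10.30 and 10.40 in transgenic spleen and 10.81, 11.15, 11.02 and 10.89 in the node, without overlap, a difference of -0.77 ± 0.11 (adjusted p = 0.000315). Atp5o and Ndufaf5 differed by -0.51 and -0.61. Cox7c, a small subunit of complex IV, was higher in spleen in transgenic mice by 0.45 ± 0.10 (adjusted p = 0.00901). The transgenic counts also moved with single mice, to 21, 13, 15 and 20 without mice 1 to 4. Without the arrays with foreign transcripts 4 genes passed, with 1 peripheral lymph node array left, whose spread was taken to be like that of the other groups. 

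Thymus compared with spleen shares the spleen arrays with the comparison above. In wild type mice 21 subunit genes were higher in thymus and 4 were lower, together 30.1% of 83 against 50.1% of all probe sets. The share higher, 25.3%, was close to the 26.5% of all probe sets, and the share lower, 4.82%, stood against 23.6%. In transgenic mice the counts were 24 and 5, together 34.9%, where 47.9% of all probe sets passed, 25.2% higher and 22.7% lower. Of the 25 wild type calls 21 passed in both genotypes, and all 25 had the same sign. No such share was computed over all probe sets here either. Without mouse 1, 15 wild type genes passed, and without the arrays with foreign transcripts 10 did, where 37.9% of all probe sets passed. With the arrays set only to a common median the counts were 9 higher and 2 lower, and with no normalization 3 and 2.

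Complex V and complex I gave most of the genes higher in wild type thymus than in spleen, 7 each, and complex IV gave 4 and complex III 2. Ndufs4 had the largest difference outside the restricted isoforms. It was 10.48, 10.59, 10.60 and 10.60 in thymus against 9.34, 9.62, 9.38 and 9.69 in spleen. The groups lay far apart, and the difference was 1.06 ± 0.11 (adjusted p = 7.71e-06), 2.09-fold. Transgenic mice gave 10.26, 10.70, 10.30 and 10.57 in thymus and 9.35, 9.32, 9.45 and 9.52 in spleen, a difference of 1.05 ± 0.10 (adjusted p = 5.35e-06). Ndufs4 passed under every alternative run for thymus against spleen in wild type mice. It was also higher in thymus than in either lymph node, by 0.65 and 0.78 in wild type mice. Ndufs7 went the other way, at 10.18, 10.26, 10.16 and 10.06 in thymus and 10.56, 10.48, 10.35 and 10.31 in spleen, without overlap, a difference of -0.26. This call was lost under 8 of 14 alternatives, among them leaving out any 1 of the 4 mice, a common median and no normalization, with an adjusted p of up to 0.195.

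The catalytic core of ATP synthase was higher in thymus. Atp5a1 was 12.30, 12.39, 12.26 and 12.28 in wild type thymus and 11.64, 11.55, 12.01 and 12.04 in spleen, a difference of 0.50 ± 0.11 (adjusted p = 0.00233). Atp5b was 12.28, 12.32, 12.37 and 12.35 in thymus and 11.70, 11.59, 12.03 and 12.12 in spleen, a difference of 0.47 ± 0.10 (adjusted p = 0.00239). Neither gene's tissues overlapped, and in both the spleens of mice 1 and 2 were the lowest, the same spleens with the high ratio of 3' to 5' Actb signal. Both calls were lost without the arrays with foreign transcripts and when the arrays were set only to a common median. Atp5o was 11.27, 11.31, 11.35 and 11.34 in thymus, above all spleen values given before, a difference of 0.56 ± 0.09 (adjusted p = 0.000234). The c-ring gene Atp5g3 was higher by 0.29 while Atp5g1, which encodes the same mature protein, was lower, with a difference of -0.25.

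Thymus compared with peripheral lymph node gave 7 genes higher and 21 lower in wild type mice, together 33.7%, where 57.3% of all probe sets passed, 28.6% in each direction. In transgenic mice 9 were higher and 16 lower, together 30.1%, where 48.6% of all probe sets passed, 23.8% higher and 24.9% lower. With a common median in place of quantile normalization the wild type split was 2 higher and 39 lower, and the transgenic split was 3 and 39, so the share of each direction here depends on the scaling. Shares of all probe sets by direction were not computed for the alternatives. The median of all probe sets also moved with this scaling in wild type mice, so these counts are not shown to be particular to the subunit genes. Within complex V 4 genes were higher, Atp5a1, Atp5b, Atp5g3 and Atp5h, and 4 were lower, Atp5e, Atp5g2, Atp5l and Atp5mpl. With a common median the Atp5a1 difference was 0.03 (limma, adjusted p = 0.894) and the Atp5b difference 0.17 (adjusted p = 0.373), both without a call. Atp5a1 lost its call under 8 of 14 alternatives. Atp5e, the epsilon subunit of the central stalk, was 10.67, 10.80, 10.72 and 10.73 in thymus and 11.16, 11.08, 11.62 and 11.14 in the node. The values did not overlap, and the difference was -0.52. Cox7c was 8.15, 8.31, 7.98 and 8.23 in thymus and 7.32, 7.75, 7.15 and 7.52 in the node, also apart, a difference of 0.74 ± 0.24 (adjusted p = 0.0187), a call lost without any of mice 1, 3 and 4. It was 0.73 ± 0.10 in transgenic mice (adjusted p = 0.000107). Ndufaf8, an assembly factor that stabilises Ndufaf5, was 9.26, 9.34, 9.10 and 9.13 in thymus and 10.02, 9.79, 10.37 and 10.13 in the node, a difference of -0.87 ± 0.17 (adjusted p = 0.000815). Ndufaf5 itself differed by -0.71 (adjusted p = 0.00179). The count fell to 18, 14 and 17 without wild type mice 1, 3 and 4, and to 9 without the arrays with foreign transcripts. The transgenic count was 16, 14 and 14 without mice 2, 3 and 4.

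Against mesenteric lymph node, 13 genes were higher and 10 lower in wild type thymus, together 27.7% against 55.1% of all probe sets, of which 28.8% were higher and 26.4% lower. Ndufs4, Cox7c, Atp5a1, Atp5b, Atp5g3 and Atp5h were again among the higher genes, and Ndufa7, Ndufs7, Cox7a2l, Atp5e, Ndufaf5 and Ndufaf8 among the lower ones. With a common median the calls of Atp5a1 and Atp5b were lost, at differences of 0.11 and 0.26. Both comparisons use the same thymus arrays. With no normalization the counts were 4 higher and 1 lower, and with a common median 4 and 7. In transgenic thymus 11 genes were higher and 10 lower, where 51.3% of all probe sets passed, 26.1% higher and 25.2% lower, and with a common median 4 and 30. The counts fell to 10, 13 and 13 without wild type mice 1, 3 and 4, and to 11 without transgenic mouse 3 or 4. In spleen 14 genes were lower than in mesenteric lymph node and 1, Cox6b2, was higher, together 18.1%. Of all probe sets 34.9% passed, 18.1% lower and 16.7% higher. With no normalization 1 gene was lower and 1 higher, and without wild type mouse 2, 3 or 4 the count was 8. The lower genes included Ndufa7, Ndufa8, Ndufb5, Uqcrc2, Atp5j, Atp5o, Ndufaf5 and Ndufaf7. Uqcrc2, a core protein of complex III, differed by -0.24. In transgenic mice 16 genes were lower and 2 higher, where 27.4% of all probe sets passed, 14.3% lower and 13% higher, and 6, 10 and 9 genes passed without transgenic mice 1, 3 and 4. With no normalization the transgenic split was 2 lower and 2 higher. The lymph nodes differed from each other in 1 gene in wild type mice, Cox8b, and in 2 in transgenic mice, Cox7a1 and Cox8b. Of all probe sets 2.18% passed in wild type mice, 1.46% higher and 0.718% lower, and 0.77% in transgenic mice, 0.429% higher and 0.34% lower. All these genes were lower in mesenteric lymph node. The wild type count was 0 without mouse 1 or 4, and the transgenic count 0 without mouse 3 or 4 (limma).

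**Figure D3:**
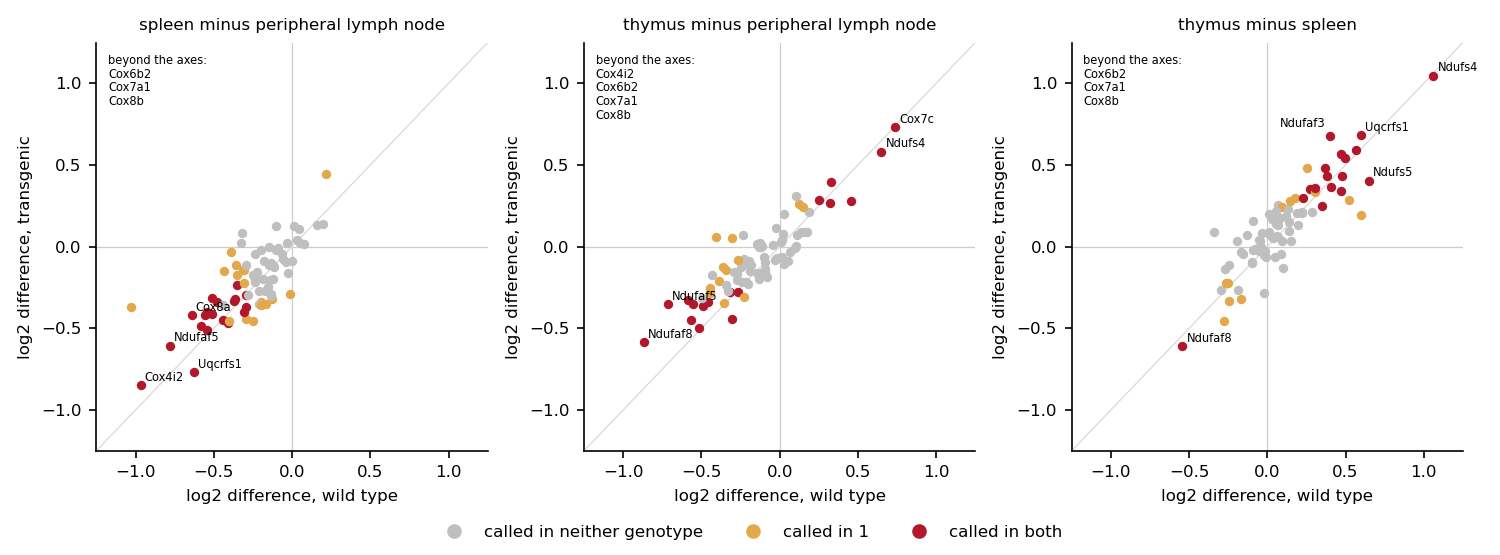
Difference in log2 level between tissues for each gene, wild type mice on the horizontal axis and transgenic mice on the vertical axis, for 3 tissue pairs. Grey genes passed in neither genotype, orange in 1 and red in both, and most points called in both lie near the diagonal, such as Ndufs4 at 1.06 and 1.05 in thymus minus spleen. Genes beyond the axes are listed in each panel.

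The largest differences came from the isoforms of complex IV subunits with restricted expression. Cox8b, Cox7a1 and Cox6a2 are the heart and muscle forms of subunits whose general forms are Cox8a, Cox7a2 and Cox6a1, and Cox8b and Cox7a1 are also abundant in brown fat. Cox6b2 is known as the testis form of Cox6b1, and Cox4i2 as the lung form of Cox4i1 that is induced by low oxygen. Promoter stretches are shown for the 3 isoforms with the largest differences and, for comparison, for the general forms Cox6a1 and Cox8a. They come from RefSeq on GRCm38.p6 and run from 250 bases before the annotated start to 30 after it. Capitals mark matches, on either strand, to the NRF1 consensus and its short form, in which 1 middle base is free, and to the letters CCGGAAGT (ETS), AAGATGGCG (YY1) and TATAAA. The stretches are Cox8b at chr7:140900417-140900696 on the minus strand, Cox7a1 at chr7:30183921-30184200 on the plus strand, Cox6b2 at chr7:4753065-4753344 on the minus strand, Cox8a at chr19:7217587-7217866 on the minus strand and Cox6a1 at chr5:115348929-115349208 on the minus strand.
Cox8b: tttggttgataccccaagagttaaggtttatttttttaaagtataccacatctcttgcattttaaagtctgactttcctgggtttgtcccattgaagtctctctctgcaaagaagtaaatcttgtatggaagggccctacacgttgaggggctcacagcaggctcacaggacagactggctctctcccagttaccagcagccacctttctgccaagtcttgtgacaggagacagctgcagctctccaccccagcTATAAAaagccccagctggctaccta
Cox7a1: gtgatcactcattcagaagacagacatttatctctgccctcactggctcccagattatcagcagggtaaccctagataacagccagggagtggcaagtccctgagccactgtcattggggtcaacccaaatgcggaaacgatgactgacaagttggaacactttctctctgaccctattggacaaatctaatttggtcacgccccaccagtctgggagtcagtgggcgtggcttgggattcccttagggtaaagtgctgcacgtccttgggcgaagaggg
Cox6b2: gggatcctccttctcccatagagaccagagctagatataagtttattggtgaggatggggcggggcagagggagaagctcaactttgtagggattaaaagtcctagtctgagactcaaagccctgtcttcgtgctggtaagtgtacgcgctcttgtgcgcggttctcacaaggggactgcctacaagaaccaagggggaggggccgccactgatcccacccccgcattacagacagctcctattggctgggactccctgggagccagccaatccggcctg
Cox8a: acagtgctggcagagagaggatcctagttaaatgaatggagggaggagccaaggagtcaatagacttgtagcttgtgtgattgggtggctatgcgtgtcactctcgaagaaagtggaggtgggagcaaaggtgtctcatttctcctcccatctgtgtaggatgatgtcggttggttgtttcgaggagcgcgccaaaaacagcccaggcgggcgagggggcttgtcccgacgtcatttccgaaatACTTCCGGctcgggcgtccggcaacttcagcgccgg
Cox6a1: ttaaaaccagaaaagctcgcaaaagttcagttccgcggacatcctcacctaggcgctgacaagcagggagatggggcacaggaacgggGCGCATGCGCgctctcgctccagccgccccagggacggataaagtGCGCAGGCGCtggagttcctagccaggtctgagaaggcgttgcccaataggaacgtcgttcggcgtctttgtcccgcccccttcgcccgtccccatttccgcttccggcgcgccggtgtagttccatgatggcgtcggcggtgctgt

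In these stretches Cox8b held a TATAAA match, Cox8a an ETS match on the other strand and Cox6a1 an NRF1 match and a match to its short form on the other strand, and the searched letters were not found in Cox7a1 and Cox6b2. RefSeq promoters of 300 bases were at hand for 71 of the 86 genes, 76 promoters in all. NRF1 is a factor known to bind promoters of respiratory chain genes, and every match to its consensus is also a match to the short form. The consensus was in 7.89% of the subunit promoters and 0.971% of all 32851 promoters, and the short form in 21.1% and 4.6%. CCGGAAGT was in 6.58% and 3.89%, AAGATGGCG (YY1) in 9.21% and 1.4%, and TATAAA in 11.8% and 13.6%. At least 1 of the short form, ETS and YY1 letters was in 27 promoters, 35.5%, against 9.24% of all. The median GC content was 58.5% beside 52.7%. Among complexes, the short form was in promoters of 6 of 15 genes of complex V and 5 of 31 genes of complex I. A match is a description of the letters only.

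Cox8b was the gene with the largest difference between tissues. Wild type peripheral lymph node gave 8.87, 8.11, 11.24 and 8.57, thymus 7.32, 7.91, 8.51 and 7.46, and mesenteric lymph node 6.79, 6.59, 6.61 and 6.88. In spleen the deposited intensity was at or below 0 in all wild type mice and in transgenic mice 1 to 3, and transgenic mouse 4 had 4.21. Thymus and peripheral lymph node overlapped, since the thymus of mouse 3, at 8.51, lay above the node of mouse 2, at 8.11. The difference of spleen from peripheral lymph node was -5.20 ± 0.44 in wild type mice (adjusted p = 3.64e-06) with a pseudocount of 16, and -9.15 and -3.34 with 1 and 64, so no fold is given. Mesenteric lymph node was lower than peripheral lymph node by 5.58-fold, a difference of -2.48 ± 0.44 (adjusted p = 0.0119), and it did not pass without mouse 1 or mouse 4. Without the arrays with foreign transcripts that difference was -1.65 and not called, and thymus against peripheral lymph node, -1.40 ± 0.44 (adjusted p = 0.016, and no call without mouse 1), was -0.65 and not called.

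Cox7a1 followed the same mice. It was 6.90, 5.55, 9.44 and 6.31 in wild type peripheral lymph node and 7.13, 8.98, 8.89 and 8.32 in transgenic peripheral lymph node. In spleen it was 5.41, 5.25, 4.70 and 4.12 in wild type mice and 4.22, 4.75, 5.73 and 5.71 in transgenic mice. The highest value, again wild type mouse 3, was over 2 log2 above the other 3 wild type nodes. Spleen differed from peripheral lymph node by -2.18 ± 0.58 in wild type mice (adjusted p = 0.0109) and by -3.22 ± 0.40 in transgenic mice (adjusted p = 0.000157). The wild type call was lost without mouse 4 and with only the arrays of these 2 tissues. Mesenteric lymph node, at 4.83 to 5.34 over both genotypes, was lower in transgenic mice, with a difference of -3.09 ± 0.40 (adjusted p = 0.00373), and differed by -2.07 in wild type mice without passing (adjusted p = 0.099). The transgenic call was lost without mouse 3 or mouse 4. It was also lost without the arrays with foreign transcripts, where the difference was -4.15 (adjusted p = 0.327) with 1 peripheral lymph node array left.

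Some markers of fat moved with both genes, and others did not between the lymph nodes. Ucp1, the uncoupling protein that defines brown fat, was 6.93, 4.00, 11.29 and 4.00 in wild type peripheral lymph node and 8.86, 11.21, 11.46 and 10.71 in transgenic peripheral lymph node. It was at or below an intensity of 0 in all 16 arrays of mesenteric lymph node and spleen. In thymus it was 5.91, 8.04, 9.78 and 8.31 in wild type mice and 7.14, 5.70, 10.47 and 10.11 in transgenic mice. In transgenic mice the 2 arrays with the highest Ucp1 were also the 2 with the highest Cox8b, in thymus and in peripheral lymph node alike. In wild type peripheral lymph node both genes were likewise highest in mice 3 and 1. In wild type thymus the arrays differed, since Ucp1 was highest in mice 3 and 4 and Cox8b in mice 3 and 2. The 8 measured adipocyte genes averaged 8.90, 8.02, 10.05 and 8.77 in wild type peripheral lymph node and 8.95, 9.33, 9.86 and 9.62 in the transgenic one. They averaged 8.02 to 9.05 in mesenteric lymph node, 6.94 to 8.52 in thymus and 4.83 to 5.26 in spleen. Among them Adipoq was 11.19 to 12.19 in peripheral and 11.87 to 12.49 in mesenteric lymph node over both genotypes. Fabp4 was 12.34 to 12.94 and 12.53 to 13.02 in the same order. Neither was lower in mesenteric lymph node, where Cox8b and Cox7a1 were. The part of fat in the Cox8b and Cox7a1 levels was not tested. Skeletal muscle genes, 18 of 18 on the array, averaged 9.25 in wild type peripheral lymph node of mouse 1, 7.57 in mouse 3 and at most 6.84 on the other arrays.

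**Figure D4:**
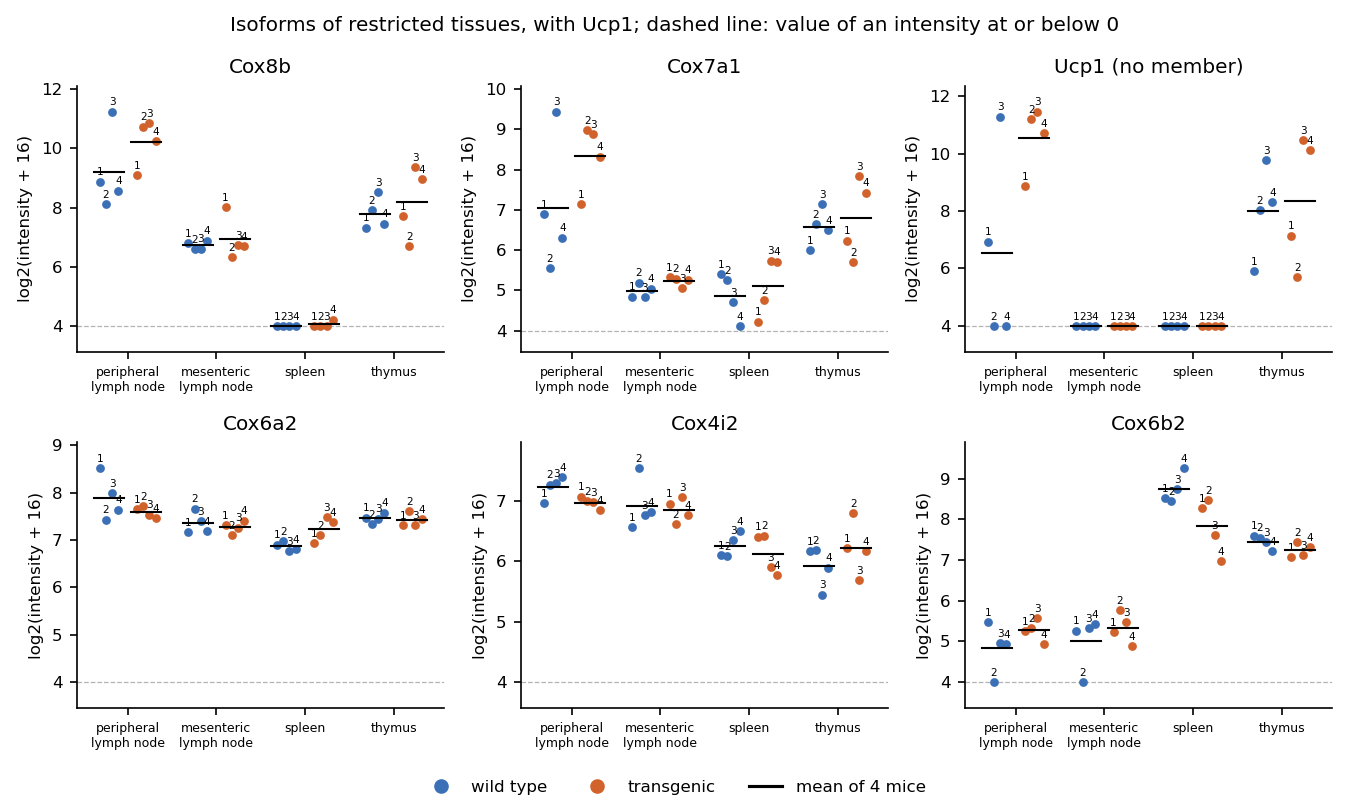
Log2 level on each array of the restricted complex IV isoforms Cox8b, Cox7a1, Cox6a2, Cox4i2 and Cox6b2 and of the brown fat marker Ucp1, by tissue and genotype. Points are single mice, and the dashed line at 4 is an intensity at or below 0. Cox8b and Ucp1 lie on that line in spleen, apart from 1 Cox8b value of 4.21, while Cox6b2 is highest in spleen.

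Cox6a2, the muscle form of subunit VIa, was 8.52, 7.43, 7.99 and 7.64 in wild type peripheral lymph node and 6.90, 6.98, 6.77 and 6.80 in spleen. The groups did not overlap, and mouse 1, with the most muscle transcript, was the highest node. The difference was -1.03 ± 0.20 in wild type mice (adjusted p = 0.00151) and -0.37 ± 0.13 in transgenic mice (adjusted p = 0.0595). Cox6a1, its general form, lay between 12.31 and 12.72 on all arrays and passed in no comparison of wild type tissues. Cox4i2 was 6.96, 7.27, 7.29 and 7.39 in peripheral lymph node, 6.11, 6.08, 6.36 and 6.50 in spleen and 6.17, 6.19, 5.45 and 5.89 in thymus, all wild type. Both organs lay below the node without overlap, by -0.97 ± 0.20 (adjusted p = 0.00271) in spleen and -1.31 ± 0.20 (adjusted p = 0.000148) in thymus. Transgenic mice gave -0.85 and -0.76. Cox8c, known from testis, differed by -0.37 between thymus and peripheral lymph node (adjusted p = 0.0126). Its call was lost without mouse 3 or mouse 4, with the mean of all its probe sets, with no normalization and without the arrays with foreign transcripts, with an adjusted p of up to 0.0984.

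Cox6b2 was the 1 subunit gene higher in wild type spleen than in either lymph node. It was 8.52, 8.44, 8.75 and 9.26 in wild type spleen, 7.60, 7.55, 7.44 and 7.22 in thymus and 5.47, 4.00, 4.96 and 4.93 in peripheral lymph node. Mesenteric lymph node had 5.27, 4.00, 5.32 and 5.43. The 3 levels did not overlap. Spleen exceeded peripheral lymph node by 3.90 ± 0.27 (adjusted p = 7.02e-07) with a pseudocount of 16, and by 5.49 and 2.62 with 1 and 64. Thymus was below spleen by -1.29 ± 0.27 (adjusted p = 0.00157), a call lost with a pseudocount of 1 (adjusted p = 0.200). The transgenic differences were 2.56 (adjusted p = 9.84e-06) and -0.60 (adjusted p = 0.0431). Erythroid genes, 9 of 12 on the array, averaged 10.34, 10.94, 11.00 and 11.72 in the wild type spleens and 10.31, 10.57, 10.35 and 9.30 in the transgenic spleens. Wild type mouse 4 was highest in both Cox6b2 and the erythroid mean, and transgenic mouse 4 lowest among spleens in both. Between these ends the orders differed. Wild type mouse 1 had a lower erythroid mean than mouse 2, 10.34 against 10.94, and a higher Cox6b2, 8.52 against 8.44. Transgenic mice 1 and 3 were also in opposite order. Wild type thymus held Cox6b2 at 7.22 to 7.60 with erythroid means of 4.95 to 5.57. The part of erythroid cells was not tested.

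Between genotypes, 0 of the subunit genes passed in any tissue (limma, adjusted p under 0.05), of the 83 tested in peripheral and 82 tested in mesenteric lymph node, the 81 tested in spleen and the 84 tested in thymus. The shares of all probe sets that passed were 0.037%, 0%, 0.0111% and 0.0037%. At an unadjusted p under 0.05 the counts were 1, 1, 2 and 1, below the 8.32%, 4.71%, 8.64% and 7.29% of all probe sets. Median differences, arrays labelled transgenic minus wild type, were -0.01, 0.03, 0.01 and 0.06, beside -0.01, 0.01, 0.01 and 0.00 for all probe sets. The smallest adjusted p-values were 0.599, 0.972, 0.557 and 0.671. The 95% interval of a gene's difference had a median half-width of 0.28, 0.21, 0.25 and 0.23. It lay wholly within 0.5 of 0 for 69, 76, 70 and 77 genes in the same order. A shift of 0.5 log2 is therefore outside the interval of most subunit genes in each tissue, though not of all.

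**Figure D5:**
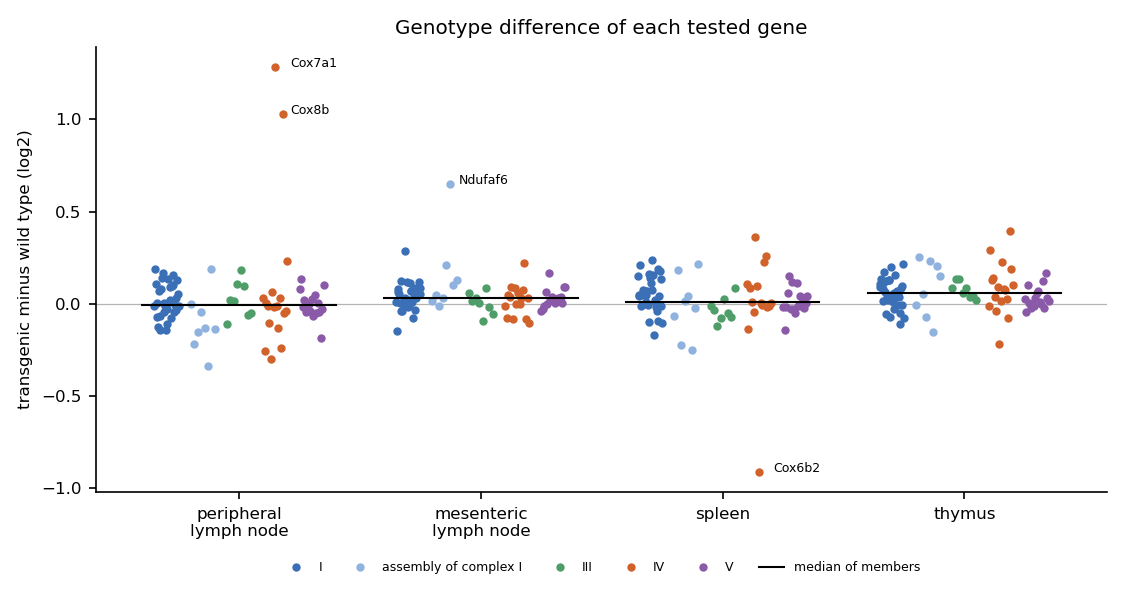
Difference in log2 level, arrays labelled transgenic minus wild type, of each subunit gene in each tissue. Points are genes, coloured by complex, the bar is their median, and those beyond 0.6 are named: Cox7a1 at 1.28 and Cox8b at 1.03 in peripheral lymph node, Ndufaf6 at 0.65 in mesenteric lymph node and Cox6b2 at -0.91 in spleen, none of which passed.

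The widest genotype differences belonged to the genes that varied most between mice. In peripheral lymph node Cox7a1 differed by 1.28 ± 0.79 (interval -0.50 to 3.07, adjusted p = 0.711) and Cox8b by 1.03 ± 0.67 (interval -0.49 to 2.55, adjusted p = 0.727). For Cox8b the transgenic nodes had 9.10, 10.73, 10.84 and 10.24, so the genotypes overlapped through wild type mouse 3 at 11.24. In spleen Cox6b2 was 8.28, 8.47, 7.61 and 6.97 in arrays labelled transgenic, overlapping the wild type values through mouse 2, a difference of -0.91 ± 0.33 (interval -1.66 to -0.16, adjusted p = 0.557). Cox6a2 was 0.36 ± 0.14 higher there (adjusted p = 0.557). Ndufaf6 in mesenteric lymph node differed by 0.65 ± 0.53 with 1 wild type value at 4.00.

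Other subunits differed by less. In peripheral lymph node Cox4i2, between 6.84 and 7.07 in arrays labelled transgenic, differed by -0.26 ± 0.11 (adjusted p = 0.599), with overlap. Atp5b there was 11.93, 12.13, 12.05 and 11.93 against 11.88, 11.90, 11.87 and 11.83. It was the 1 gene of 83 in this node whose genotypes did not overlap, where 5.35% of all probe sets did not, and its difference was 0.14 ± 0.08 (adjusted p = 0.705). In mesenteric lymph node 0 genes were apart, against 3.93% of all probe sets. Ndufb1 came closest to the threshold there with a difference of 0.29 ± 0.11 (adjusted p = 0.972). In spleen Cox7a2l was 11.66, 11.74, 11.70 and 11.76 against 11.65, 11.62, 11.45 and 11.23, the 1 gene of 81 that was apart, where 4.88% of all probe sets were. The difference was 0.23 ± 0.12 (adjusted p = 0.627).

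Thymus had 6 genes of 84 whose genotypes did not overlap, 7.14%, where 4.6% of all probe sets did not. They were Atp5c1, Cox5b, Ndufa12, Ndufa7, Ndufaf7 and Ndufb8, all higher in arrays labelled transgenic by 0.10 to 0.21, and none passed. Ndufaf7, an assembly factor of complex I, was 7.87, 8.06, 7.86 and 7.90 against 7.75, 7.73, 7.69 and 7.70. Its difference was 0.21 ± 0.08 (adjusted p = 0.671). In thymus the median genotype difference was 0.05 for mice 1 and 2 and 0.07 for mice 3 and 4, and it was 0.016 when the arrays were set only to a common median.

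The genotype difference was also compared between the 4 tissues in 1 fit with mouse as a block. Of 83 subunit genes 0 passed, and 0.0851% of all probe sets did. At an unadjusted p under 0.05 there was 1 subunit gene, Cox6b2, beside 8.95% of all probe sets. Its F was 5.80, and its adjusted p was 0.310 (limma). Cox7a2l, Cox6a2, Uqcrb and Ndufa7 followed with adjusted p from 0.576 to 0.715. The tissue differences themselves had the same sign in both genotypes for every wild type call but 2, Atp5mpl and Ndufaf2 in thymus against peripheral lymph node. A like count over all probe sets was not made.

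Other genes of mitochondrial energy metabolism were counted in the same fits, and the alternatives in scaling and in the arrays used were not run for these lists. In wild type spleen against peripheral lymph node 20.9% of all probe sets were lower and 17.9% higher. In this comparison 3 of 4 subunits of complex II were lower, Sdhb by -0.55, Sdhc by -0.29 and Sdha by -0.26. Of 15 citrate cycle genes 6 were lower and 0 higher, among them Pdha1 of pyruvate dehydrogenase at -0.79 and Suclg1 of succinyl-CoA ligase at -0.50. Of 76 mitochondrial ribosomal protein genes 22 were lower and 0 higher, with Mrps6 at -1.20 and Mrpl38 at -0.83. Assembly factors of complexes III and IV gave 10 lower and 2 higher of 19, including the copper chaperones Sco1 at -0.57 and Sco2 at -0.83. Cytosolic ribosomal proteins gave 5 lower and 1 higher of 44, and transport and import genes 2 lower and 3 higher of 15. Of Cycs, for cytochrome c, and Cyc1, for cytochrome c1 of complex III, 0 of 2 passed. Atpif1, the inhibitor of complex V that is also needed for haem synthesis, was higher in spleen by 1.57 (adjusted p = 4.45e-06). Of 12 regulators of mitochondrial biogenesis Nrf1 was higher by 0.38 and Esrra lower, with a difference of -0.46. In wild type thymus against spleen 28.9% of the mitochondrial ribosomal genes were higher, close to the 26.5% of all probe sets. Between genotypes 0 genes of these lists passed in any tissue (limma).

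The genes outside the list whose 8 group means followed the mean of the subunits most closely were Ptn, Zdhhc4, Cyp2f2, Gm12338 and Cldn1, with Pearson's r from 0.967 to 0.976. For Cox8b they were Etfdh, which passes electrons from fatty acid oxidation to ubiquinone, at 0.986, with Gm12338, Ptn, Abcd3 and Hsd17b10. For Cox7a1 they were Cidea, a fat droplet protein, at 0.991, with Cd163l1, Fabp3, Ifnar1 and Ucp1. For Cox6b2 they were D030056L22Rik at 0.996, Metap2, Isg20, Cdt1 and 4921525O09Rik. These correlations are over 8 groups of arrays that share animals, and they describe likeness of pattern only. The mean of the subunits was not scaled per gene, so genes with wide ranges such as Cox8b weigh most in it. No version without the restricted isoforms was run, and Ptn and Gm12338 appear for Cox8b as well.

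Genes with more than 1 probe set allowed a second reading. In wild type spleen against peripheral lymph node, 22 other probe sets of the called genes were tested, of which 19 had the same sign and 11 passed in the same direction. For thymus against spleen the counts were 12 and 4 of 13, and for thymus against peripheral lymph node 25 and 16 of 27. In these 3 comparisons 0 other probe sets passed in the opposite direction (limma).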

How the data were processed

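RNA from 4 tissues of 8 mice was hybridised to 32 Affymetrix arrays. The deposited values are linear probe set intensities, and the sources used here do not give the authors' scaling, software or algorithm. Negative intensities were set to 0, a pseudocount of 16 was added, and log2 values were quantile normalized over all arrays, with 64 control probe sets left out. Groups came from the labels. Each fit kept probe sets whose mean lay above the 40th percentile, 27022 per fit. Array number limits the precision. Differences were tested with limma 3.58.1 in R 4.3.3 (lmFit and eBayes, Benjamini-Hochberg adjustment over all tested probe sets, threshold 0.05), and text and figures used Python 3.11.15, pandas 2.3.3 and matplotlib 3.10.9. Genotypes were compared within each tissue, tissues within each genotype with mouse as a block, and the genotype difference between tissues over all arrays. Values after ± are standard errors of the log2 difference, n = 4 mice per group.

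Mice were paired across tissues by the number in the labels. Deviations of arrays of the same animal had a median correlation of 0.04 in wild type mice and 0.00 in transgenic mice. The genotype tests did not pair mice by number. Between genotypes, arrays of the same tissue and number had correlations of deviations from -0.32 to 0.35. In spleen these were all positive, 0.04 to 0.30. The Actb ratio also divided the spleens of both genotypes by mouse number, as given above. Whether mice of the same number were handled together was not tested. The fits were tested on simulated data with known changes in 50 probe sets per size. The genotype fits recovered 10% to 16% of changes of 0.5 log2 and 40% to 60% of changes of 1 log2. Many changes of these sizes would thus go uncalled between genotypes. Of the probe sets called in the simulations, 2.63% to 10.4% were false, the most between the lymph nodes. Each simulation was a single draw of independent values without a mouse effect, with few probe sets changed. Most tissue comparisons called far more probe sets, so these shares do not describe the tissue calls.

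The subunit genes and the other gene lists were chosen with earlier results of these data known. Genes named in the text are the core subunits, the restricted isoforms, the 5 smallest p-values per genotype comparison and between tissues, the 3 largest changes in each direction shared by all 4 mice in each wild type tissue comparison, any called gene where at most 5 were called, the 5 genes most alike in pattern and up to 3 genes of each other list. Further subunits were named after their values were seen, as examples of their complex: Ndufa8, Uqcr10, Cox7c, Atp5o, Atp5e and Ndufaf8 among them. Alternatives covered the pseudocount, normalization, filter, probe set choice, replicate block, arrays in the fit and left-out mice. Arrays with foreign transcripts were left out as a choice made after seeing the data. A protein comparison of isoform pairs was planned and not run.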

Additional observations from a re-analysis of the deposited data

Results flagged for a closer look

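In 319 groups of 4 mice, 17 had 1 mouse far from the other 3, 5.33% of the groups, where chance gives about 1 in 20. The test compares the gap between the extreme value and its nearest neighbour with the range of the group. All values are log2.

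Wild type mouse 2 was such a value 4 times in mesenteric lymph node, on the array with the highest exocrine pancreas mean, 13.25. The mean of the complex I assembly factors was -0.31 there, with 0.01 next, Cox6b2 was 4.00 with 5.27 next, and Ndufs7 was 10.40 with 10.49 next. Ndufa4l2 was 6.61 there, above 5.58. The part of pancreas tissue in these values was not tested. Transgenic mouse 3 stood apart 3 times in spleen, with a complex I mean of -0.11 below -0.09, Ndufaf5 at 6.46 below 6.60, and Uqcrc1 at 10.89 above 10.83. Wild type mouse 3 stood apart 2 times in peripheral lymph node, with Ndufb1 at 9.27 above 8.63 and Uqcrc2 at 11.12 above 10.80, on an array that also had the highest adipocyte mean, 10.05.

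Single values stood apart on other arrays. In thymus they were Cox7b2 at 4.53 above 4.00 in wild type mouse 2, Ndufs4 at 10.48 below 10.59 in wild type mouse 1, Cox7c at 7.96 below 8.25 in transgenic mouse 3, Ndufaf7 at 8.06 above 7.90 in transgenic mouse 2, and Ndufs1 at 9.53 above 9.45 in transgenic mouse 1. In spleen they were Cox8b at 4.21 above 4.00 in transgenic mouse 4, Cox8c at 8.67 above 8.48 in wild type mouse 4, and Ndufv1 at 9.90 below 10.02 in wild type mouse 3.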

How the results depend on the processing

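Genotype counts of called subunit genes stayed at 0 under every alternative run, the replicate block of mouse numbers and each left-out mouse included, and so did the count for the genotype difference between tissues (limma). The fit without foreign transcripts was not run for the genotypes in peripheral lymph node, where 2 wild type and 1 transgenic arrays remained. Genotype medians moved to 0.13, 0.19, -0.17 and 0.12 in peripheral lymph node, mesenteric lymph node, spleen and thymus with no normalization, and to 0.19, -0.036 and 0.016 in the last 3 with a common median, which moved the median of all probe sets by 0.09 in mesenteric lymph node. Atp5g1 in mesenteric lymph node was -0.039 with the mean of all its probe sets.

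Tissue counts follow as thymus minus spleen, thymus minus peripheral lymph node, thymus minus mesenteric lymph node, spleen minus peripheral lymph node, spleen minus mesenteric lymph node and mesenteric minus peripheral lymph node. In wild type mice the counts were 25, 28, 23, 31, 15 and 1. With no normalization they were 5, 10, 5, 5, 2 and 2, with medians of -0.20, -0.37 and 0.070 for the thymus comparisons, 0.23 for spleen minus mesenteric lymph node and -0.41 between the nodes, and Ndufs1 in thymus minus spleen was -0.039. With a common median, which moved the median of all probe sets to -0.12 in thymus and -0.14 in spleen against peripheral lymph node, counts were 11, 41, 11, 38, 7 and 1, and medians -0.41 for thymus minus peripheral lymph node and -0.31 between the nodes. With only the arrays of the 2 tissues the last 4 counts were 15, 12, 5 and 0. Without foreign transcripts they were 10, 9, 13, 9, 2 and 0. Without 1 mouse counts ran from 15 to 22, 14 to 33, 10 to 16, 15 to 32, 8 to 10 and 0 to 1, and medians from 0.06 to 0.11, -0.25 to -0.07, -0.05 to 0.02, -0.29 to -0.15, -0.14 to -0.09 and -0.18 to -0.07.

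In transgenic mice the counts were 29, 25, 21, 32, 18 and 2. With a common median 19, 42, 34 and 34 passed in the 3 thymus comparisons and spleen minus mesenteric lymph node, with medians of 0.10, -0.33, -0.23 and -0.33, and spleen minus peripheral lymph node had a median of -0.38. With no normalization thymus minus spleen gave 8 (median 0.11), thymus minus mesenteric lymph node 7 and spleen minus mesenteric lymph node 4, and medians were -0.40 and -0.46 for thymus and spleen against peripheral lymph node and -0.33 between the nodes. With only the arrays of the 2 tissues, counts were 18 for thymus minus spleen, 13 and 11 for thymus and spleen against peripheral lymph node, 8 for spleen minus mesenteric lymph node and 0 between the nodes. Without foreign transcripts they were 13, 4, 4, 4, 2 and 0. The mean of all probe sets gave a median of 0.15 in thymus minus spleen, and the 60th percentile filter a count of 1 between the nodes. Without 1 mouse counts ran from 21 to 24, 14 to 19, 11 to 18, 13 to 21, 6 to 13 and 0 to 2, with a thymus minus spleen median of 0.11 to 0.14.

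With no replicate block the wild type counts were 25, 30, 23, 35, 14 and 1 and the transgenic ones 29, 27, 22, 34, 17 and 2, so the pairing of tissues by mouse moved no count by over 1.5 times. Of the values of named genes under these alternatives, 954 kept their direction and side of the threshold, 123 lost a call and 2 reversed. All 123 were tissue differences. Genotype differences, and their comparison between tissues, held no call to lose, so the 954 are no measure of how firm the tissue calls are. The cause of the changes was not tested. Genes near background, such as Cox8b and Cox6b2 in some tissues, have differences that depend on the pseudocount. The planned protein comparison was not run.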
